A study of Mus musculus with 3 samples.

Results

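The alpha-beta T cells of mouse dorsal skin were studied in 3 droplet single-cell RNA libraries, 1 for each group of mice. They were chosen by their own counts: 900 of 33204 filtered barcodes met the rule, with 43 of 9408 in the young YAP/TAZ knockout library, 179 of 12074 in the old control library and 678 of 11722 in the young control library. A barcode marks the RNA of 1 droplet, which usually held 1 cell, and a UMI is 1 counted RNA molecule. A barcode passed the filter with 500 or more genes, 1000 or more UMIs and no more than 15% of its UMIs from mitochondrial genes. A filtered barcode was a member when at least 2 of the 6 receptor genes Cd3e, Cd3d, Cd3g, Trac, Trbc1 and Trbc2 had at least 1 UMI. It also had to hold Ptprc, the gene of the pan-leukocyte antigen CD45, and to lack Trdc, the constant gene of the gamma-delta receptor. Barcodes with C1qa or C1qb, which mark macrophages, or with more than 2 UMIs of the keratinocyte gene Krt5 were left out.

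The knockout mice were 2.5 months old and carried R26-CAG-CreER together with Yap1 fl/fl and Wwtr1 fl/fl. CreER is a recombinase that tamoxifen switches on, and the CAG promoter that drives it is active in most cell types, so T cells themselves could lose both genes. The old control mice were 24 months old, wild-type and untreated. The young control mice were 2.5 months old and carried Yap1 fl/fl and Wwtr1 fl/fl without CreER. Tamoxifen was given to both young groups by gavage (0.11 mg for each g of body weight, 2 days weekly, 4 weeks). The old and the young control therefore differ in age, in floxed alleles and in tamoxifen, and these cannot be told apart. The sources used here do not say how many animals a library holds.

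Alpha-beta T cells recognise peptides on MHC molecules through a receptor built from the Trac and Trbc chains and signalling through the CD3 proteins. A second signal comes from costimulatory receptors: CD28 and ICOS promote activation, and CTLA-4 binds the same ligands as CD28 and dampens it. In skin, CD8+ memory T cells can stay resident and express the chemokine CCL5 (Ccl5), and regulatory T cells are defined by the transcription factor FOXP3. Icos, Cd28 and Ctla4 lie side by side on the plus strand of chromosome 1 (GRCm38, GENCODE M21), Cd28 at 60716800 to 60773359, Ctla4 at 60887000 to 60915832 and Icos at 60977927 to 61000320. Foxp3 lies on chromosome X at 7573644 to 7595245 on the plus strand, and Ccl5 on chromosome 11 at 83525778 to 83530518 on the minus strand. All 5 are protein-coding genes.

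The libraries stand apart in ways other than the labels. The knockout library held Ddx3y (24 UMIs) and Eif2s3y (15 UMIs), both Y-linked, in the member barcodes and no UMI of Xist. Members of both controls held no UMI of Ddx3y or Eif2s3y, and Xist reached 1842 CPM in the old control and 2446 CPM in the young control, so sex and knockout cannot be told apart. CPM is the UMI count of a gene summed over the member barcodes of a library and scaled to the same total in each library. The members had a median of 3696 UMIs in the knockout, 3309 in the old control and 2993 in the young control, and their median mitochondrial share was 10.3%, 6.18% and 5.36% in that order of libraries. The mitochondrial limit removed 46, 24 and 15 barcodes that met the rest of the rule in the knockout, the old control and the young control. Of all barcodes with enough genes and UMIs it removed 15069 in the knockout, 2161 in the old control and 1593 in the young control. The 9408 filtered barcodes of the knockout are thus what was left of 24477. The libraries shared 127 to 198 barcode sequences in pairs, and none of the shared sequences was a member in both libraries of a pair. With 1 library a group no test between groups is possible. All intervals below are exact 95% intervals of the counts (Clopper-Pearson for shares, Poisson for CPM, binomial split for ratios), cover counting error only, and do not hold the spread between mice. Those of CPM and ratios treat each UMI as independent and do not hold the spread between cells either. UMIs of 1 gene often lay in few barcodes, as with 19 of 73 Ctla4 UMIs in 1 knockout member. These intervals, and calls made with them, are therefore too narrow for that spread.

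The targeted genes were scarce in T cells of every library. Wwtr1, which encodes TAZ, had no UMI in the knockout members, against 24 UMIs (33.0 CPM) in the old control and 99 UMIs (39.8 CPM) in the young control. With the knockout set at the limit of 3 counts, Wwtr1 was at least 2.39-fold lower in the knockout than in the young control. Its level over the whole young control library was over 3 times that in the members, and with free RNA subtracted no UMI was left in the knockout or the young control members. Yap1 had 2 UMIs in knockout, 7 in old control and 47 in young control members (11.1, 9.63 and 18.9 CPM), too few to tell the libraries apart. Over all filtered barcodes Wwtr1 stood at 11.7 CPM in the knockout, 113 in the old control and 126 in the young control, and Yap1 at 40.8, 63.1 and 77.9 CPM. A 3' count of these genes reads the end of the transcript, and no source used here says whether that end lies in the deleted part.

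The label was checked against its markers. The receptor genes themselves were used by the rule and are given as a description: Cd3g was found in 90.7% of knockout, 78.2% of old control and 78.3% of young control members, and Trac in 51.2%, 48.6% and 69.2%. Of the 5 markers, Cd3e, Trac and Trbc2 were detected in every library at 244 to 671 CPM, and Icos and Cd28 are described further on. At the threshold, 11 knockout, 66 old control and 119 young control members held exactly 2 of the 6 receptor genes, and 58, 135 and 151 barcodes met all other conditions with exactly 1. The gamma-delta constant genes Tcrg-C1, Tcrg-C2 and Tcrg-C4 were seen in 9 of 43 knockout, 51 of 179 old control and 44 of 678 young control members. Rearranged alpha-beta T cells can transcribe gamma genes, so such barcodes are alpha-beta by the rule only. All 4 neutrophil markers and all 5 B or plasma cell markers were at 0 in the knockout, and the summed level of either list was at most 12.5 CPM in the controls. Summed markers of dendritic and Langerhans cells stood at 444 CPM in the knockout, with Cd207, Flt3 and Xcr1 at 0, against 8010 CPM in the old control and 3582 CPM in the young control, where all 6 markers were detected. In the old control this RNA was uneven: 17 of its 179 members held 10 or more UMIs of the MHC class II genes Cd74, H2-Aa, H2-Ab1 and H2-Eb1 together, against 1 of 43 in the knockout and 29 of 678 in the young control.

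Alpha-beta T cells made up 0.457% of filtered barcodes in the knockout library (interval 0.331 to 0.615), 1.48% in the old control (1.27 to 1.71) and 5.78% in the young control (5.37 to 6.22). Among leukocytes, the barcodes with Ptprc, they were 43 of 547 in the knockout (7.86%), 179 of 1429 in the old control (12.5%) and 678 of 2782 in the young control (24.4%). Within T cells the balance of the lineages differed as well. Members were 45.3% of the 95 T cell barcodes in the knockout (35.0 to 55.8), 46.1% of 388 in the old control (41.1 to 51.2) and 78.4% of 865 in the young control (75.5 to 81.1), the rest being barcodes with Trdc. Knockout and old control did not differ in this balance beyond their counting error, and both lay below the young control.

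**Figure D1:**
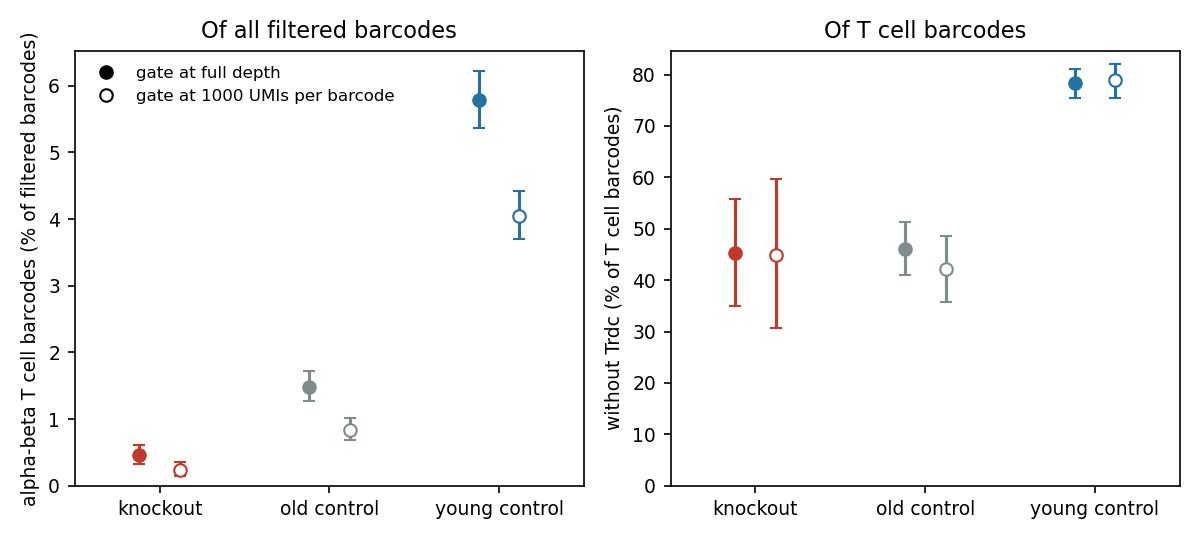
Alpha-beta T cell barcodes in % of filtered barcodes (left) and in % of T cell barcodes (right), with exact 95% intervals, for the knockout, the old control and the young control. Filled points use the full counts and open points use barcodes thinned to 1000 UMIs; at both depths the young control lay above both other libraries, with 78.4% and 78.9% of T cell barcodes.

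At equal depth the young control again lay above both other libraries. When every filtered barcode was thinned to 1000 UMIs before the rule was applied, the share of filtered barcodes was 0.234% in the knockout, 0.837% in the old control and 4.04% in the young control, and the share of T cell barcodes was 44.9%, 42.1% and 78.9%. With a filter on RNA of other cells the young control no longer lay above the old control. Barcodes with 3 or more UMIs of Col1a1, Col1a2, Col3a1 and Krt14 were 12 of 43 members in the knockout, 60 of 179 in the old control and 568 of 678 in the young control. Without them the shares were 0.330% in the knockout, 0.986% in the old control and 0.938% in the young control. The filter was applied to members only, and the totals stayed all filtered barcodes. The controls then lay close together, and no order between them is read from this. The summed level of 7 fibroblast markers in the members was 960 CPM in the knockout, 2585 CPM in the old control and 8956 CPM in the young control. These markers include the 3 collagen genes of the filter, so this is no separate observation. The part of such RNA in the difference was not tested.

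Icos and Cd28 were both lower in the knockout, and also in the old control, than in the young control. Icos had 83 UMIs in 18 of 43 knockout members (460 CPM, 367 to 571), 316 UMIs in 66 of 179 old control members (435 CPM, 388 to 485) and 2640 UMIs in 542 of 678 young control members (1062 CPM, 1022 to 1103). That is 0.434 times the young control level in the knockout (0.344 to 0.540) and 0.409 times in the old control (0.363 to 0.460). At full depth Icos was thus detected in most young control members and in a minority of the members of both other libraries.

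Cd28 had 45 UMIs in 11 knockout members (249.6 CPM, 182 to 334), 240 UMIs in 66 old control members (330.1 CPM, 289.7 to 375) and 2228 UMIs in 535 young control members (896 CPM, 859 to 934). The ratio to the young control was 0.279 in the knockout (0.203 to 0.374) and 0.368 in the old control (0.321 to 0.421). Between the knockout and the old control the intervals of both genes overlap. At an equal depth of 1000 UMIs per barcode, Icos was detected in 27.9% of knockout, 21.8% of old control and 58.6% of young control members, and Cd28 in 11.6%, 25.1% and 54.9%. Free RNA gives UMIs in cells that do not express a gene, and keratinocytes show its size: without thinning, Icos was found in 0.4% of keratinocyte barcodes (median 3958 UMIs) in the knockout, 2.08% (3184 UMIs) in the old control and 1.46% (8755 UMIs) in the young control.

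**Figure D2:**
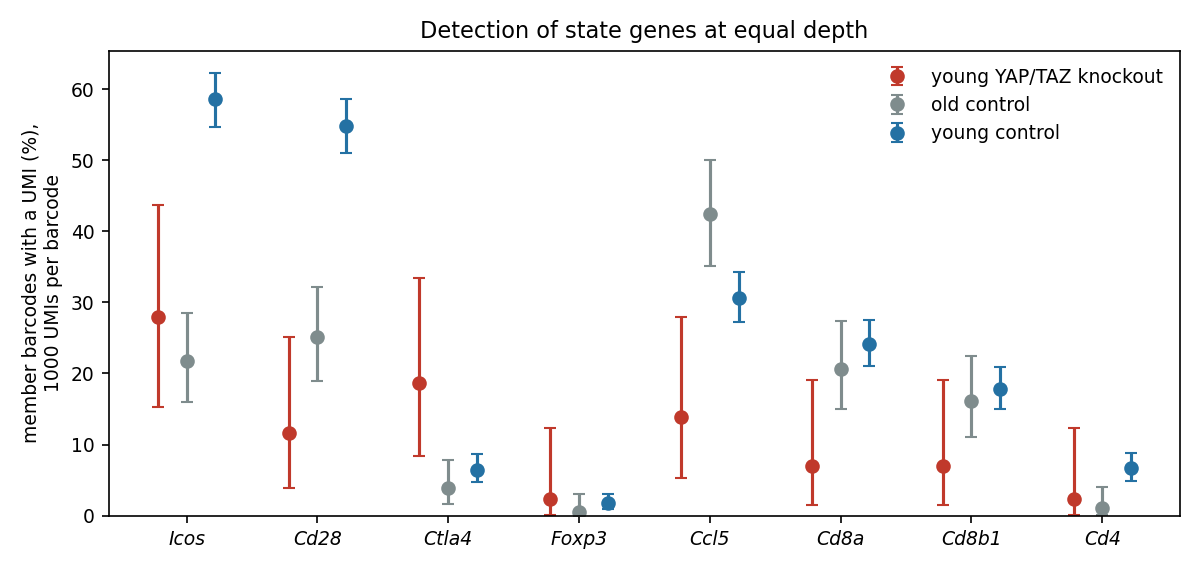
Share of alpha-beta T cell barcodes with at least 1 UMI of each gene after thinning to 1000 UMIs, with exact 95% intervals, in the knockout (left point of each trio), the old control and the young control. Icos was found in 27.9%, 21.8% and 58.6% and Ctla4 in 18.6%, 3.91% and 6.49% of members in that order.

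The direction of Icos and Cd28 held in the 15 alternatives tried. Over these 15 alternatives the ratio of Icos to the young control ran from 0.310 to 0.591 in the knockout and from 0.287 to 0.486 in the old control, and that of Cd28 from 0.195 to 0.351 and from 0.336 to 0.491. Among members with Trac, the strictest marker of the alpha-beta lineage, Icos was detected in 14 of 22 knockout barcodes (63.6%, interval 40.7 to 82.8), 43 of 87 old control barcodes (49.4%, 38.5 to 60.4) and 399 of 469 young control barcodes (85.1%, 81.5 to 88.2). Cd28 was detected in 45.5%, 60.9% and 87.2% of the same barcodes. The knockout interval for Icos then overlaps that of the young control and ends below its share, and its CPM ratio of 0.591 to the young control was past the bound of 0.5 and was not called.

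In the knockout Icos marked a distinct group of barcodes. Of its 18 Icos-positive members, 10 also held Cd28 and 9 held Ctla4, against 1 and 0 of the 25 Icos-negative members. Rora, a nuclear receptor of tissue lymphocytes, was found in 14 of the 18 and in 5 of the 25. Effector gene UMIs lay mostly in Icos-negative knockout members, 69.8% of all Gzmc and 40.4% of all Xcl1 UMIs in 1 barcode each. Gzmc stood at 164.5 CPM in Icos-positive and 6540 CPM in Icos-negative barcodes, Xcl1 at 38.0 and 2341 CPM, and Fcer1g, a signalling adaptor of NK and innate-like cells, at 75.9 and 1057 CPM.

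A minority of the 66 Icos-positive barcodes of the old control carried type 2 genes, Il13 in 24 and Areg in 18. Icos-positive members there were deeper, with a median of 4467 UMIs against 2463 in Icos-negative members. Il13 stood at 324 CPM in the 66 Icos-positive and 28.8 CPM in the 113 Icos-negative members, and Areg, an epidermal growth factor receptor ligand, at 305 and 54.8 CPM. Rora was at 894 and 190.3 CPM. Summed antigen-presenting-cell RNA was higher in Icos-negative old control members, with Cd74 at 255 CPM in Icos-positive and 8743 CPM in Icos-negative members, and Il1b at 2.63 and 1612 CPM. Only 17 old control members held 10 or more MHC class II UMIs, and 3 of these held Icos. These sums therefore do not describe the Icos-negative members as a class, and the part of the few rich barcodes was not tested. In the young control Icos-positive members had more Ctla4 (141 against 12.9 CPM in Icos-negative members), Cd40lg (194 against 29.4 CPM), which encodes the ligand by which helper T cells signal to CD40, and Cd5 (216 against 64.4 CPM).

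Ctla4 went the other way from Icos and Cd28 in the knockout. It had 73 UMIs in 9 of 43 knockout members (405 CPM, 317 to 509), 40 UMIs in 11 of 179 old control members (55.0 CPM, 39.3 to 74.9) and 281 UMIs in 97 of 678 young control members (113 CPM, 100.2 to 127). The knockout level was 3.58 times that of the young control (2.73 to 4.65) and lay between 2.45 and 5.46 times over 15 alternatives. The richest knockout barcode held 26.0% of the Ctla4 UMIs, and without the richest barcode of each library the ratio was 3.09. The old control lay at 0.487 times the young control (0.340 to 0.680). At equal depth Ctla4 was detected in 18.6% of knockout members (8.39 to 33.4), 3.91% of old control members (1.59 to 7.89) and 6.49% of young control members (4.76 to 8.61), so in detection the knockout interval only just overlaps that of the young control.

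Of the 9 Ctla4-positive knockout barcodes, 7 held Tnfrsf4, which encodes OX40, 7 held Il2ra and 4 held Tnfrsf9, which encodes 4-1BB. Of the 52 Tnfrsf4 UMIs 50 lay in them, and so did all 19 UMIs of Tnfrsf9, 63.2% of them in 1 barcode. Il2ra, the high-affinity interleukin-2 receptor chain, was at 672 CPM in them and 54.2 CPM in the other 34 members. All 9 held Icos and none held Gzmc, Xcl1 or Gzma.

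Foxp3 was too rare to compare. It had 4 UMIs in 3 knockout members, 10 UMIs in 2 old control members and 35 UMIs in 19 young control members (22.2, 13.8 and 14.1 CPM), and the ratio to the young control was 1.58 in the knockout (0.407 to 4.41) and 0.977 in the old control (0.432 to 2.02). Ctla4 was present in all 3 Foxp3-positive knockout barcodes, both old control barcodes and 17 of 19 young control barcodes. Most Ctla4-positive barcodes lacked Foxp3, namely 6 of 9 in the knockout, 9 of 11 in the old control and 80 of 97 in the young control.

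Ccl5 was higher in the old control than in the young control. It had 1997 UMIs in 89 of 179 old control members (2747 CPM, 2628 to 2870) and 2831 UMIs in 298 of 678 young control members (1139 CPM, 1097 to 1181), a ratio of 2.41 (2.28 to 2.56) that stayed between 2.21 and 3.85 over 15 alternatives. At equal depth 42.5% of old control members (35.1 to 50.1) and 30.7% of young control members (27.2 to 34.3) held a UMI. Free Ccl5 RNA was more common in the old library, where it was found in 10.9% of keratinocyte barcodes, against 2.07% in the young control library, at median depths of 3184 and 8755 UMIs.

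In the knockout 505 Ccl5 UMIs were counted in 11 of 43 members (2801 CPM), 2.46 times the young control, but 69.9% of them lay in 1 barcode. Without the richest barcode of each library the ratio was 0.814, and at equal depth only 13.95% of knockout members held a UMI (5.30 to 27.9). No order between the knockout and the young control is read from this.

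Most UMIs of the CD8 genes in the old control lay in Ccl5-positive barcodes, of which 59 of 89 held Cd8a and 42 held Cd8b1. Cd8a, the alpha chain of the CD8 coreceptor, was at 494 CPM in its 89 Ccl5-positive members and 5.78 CPM in the other 90, and Cd8b1 at 391 and 8.66 CPM. Ifng, the gene of interferon gamma, followed with 646 and 80.9 CPM, the chemokine gene Ccl4 with 1348 and 217 CPM, Klra9, a killer-cell lectin-like receptor, with 231 and 8.66 CPM, and Itga1, an integrin chain of resident cells, with 223 and 37.5 CPM. The young control showed a weaker split, with Cd8a at 502 CPM in 298 Ccl5-positive and 141 CPM in 380 Ccl5-negative members.

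Cd8a itself was at 128 CPM in the knockout, 261 CPM in the old control and 306 CPM in the young control, 0.417 times the young control in the knockout (0.263 to 0.631) and 0.855 times in the old control (0.725 to 1.004). Cd8b1 did not differ from the young control beyond counting error in either library, with ratios of 0.803 in the knockout (0.523 to 1.18) and 1.12 in the old control (0.927 to 1.35). Cd4 had 7 UMIs in the knockout, 10 in the old control and 140 in the young control. Its level in the old control was 0.244 times that of the young control (0.115 to 0.463), and the interval of the knockout ratio of 0.690 (0.272 to 1.46) includes 1. Counting barcodes, Cd8a or Cd8b1 was found in 16.3% of knockout, 35.2% of old control and 44.4% of young control members, and Cd4 in 9.30%, 3.35% and 17.3%.

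**Figure D3:**
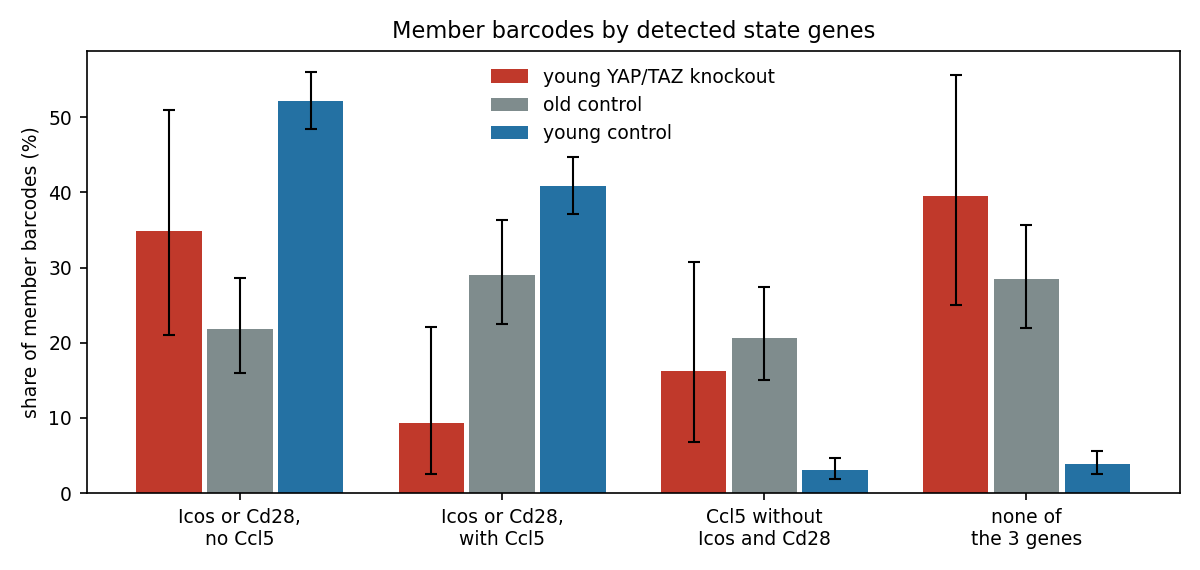
Shares of alpha-beta T cell barcodes by detection of Icos or Cd28 and of Ccl5 in the knockout, the old control and the young control, with exact 95% intervals. Barcodes with none of the 3 genes were 39.5% of knockout and 28.5% of old control members, against 3.83% in the young control.

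Taking Icos or Cd28 as the costimulatory state and Ccl5 as the effector state, 44.2% of knockout members (29.1 to 60.1), 50.8% of old control members (43.3 to 58.4) and 93.1% of young control members (90.9 to 94.9) held Icos or Cd28. Ccl5 without either receptor was seen in 7 of 43 knockout members (16.3%), 37 of 179 old control members (20.7%) and 21 of 678 young control members (3.097%). Barcodes with none of the 3 genes had a median of 2648 UMIs in the knockout, 1474 in the old control and 4451 in the young control. The old control's were thus shallow, and the part of missed RNA in this class was not tested.

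Outside the member barcodes Icos, Cd28 and Ctla4 were lower than in the members. Among the Trdc-positive T cell barcodes Icos stood at 39.7 CPM in the knockout, 98.1 CPM in the old control and 146 CPM in the young control, and Cd28 at 4.42, 44.8 and 71.0 CPM. Ctla4 was at 4.42, 1.21 and 9.75 CPM there. Leukocyte barcodes with no T cell receptor gene held Icos at 8.23, 7.32 and 19.3 CPM in the same order of libraries. Ccl5 stood at 0, 239 and 404 CPM in the Trdc-positive barcodes and at 339.5, 48.5 and 67.7 CPM in the leukocytes without receptor genes.

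**Figure D4:**
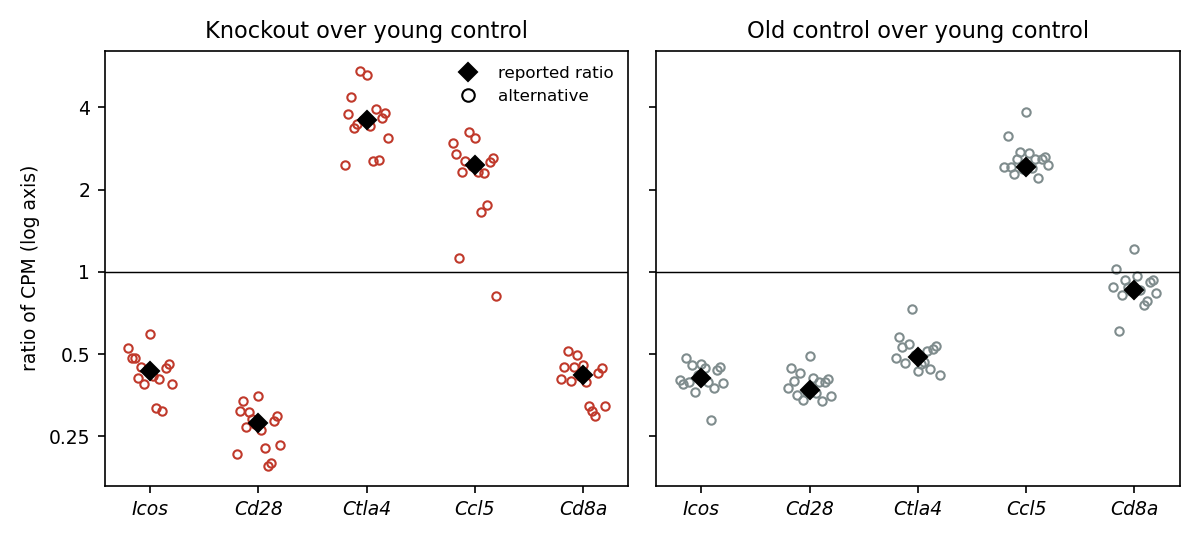
Ratio of summed CPM of 5 genes in member barcodes, knockout over young control (left) and old control over young control (right), on a log axis. Diamonds are the reported ratios and circles the alternatives; Icos and Cd28 lay below 1 and Ctla4 above 1 in the knockout in all of them, while Ccl5 in the knockout reached 0.814 without its richest barcode.

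Across the genes, a gene was called higher or lower by size alone: it averaged 20 CPM or more across the libraries, differed 2-fold or more (ratio of 2 and above, or 0.5 and below), and had the nearer end of its interval past 1.5-fold. Of 6097 genes at that level, 168 were higher (2.76%) and 186 lower (3.05%) in the knockout than in the young control, and 98 were higher (1.61%) and 190 lower (3.12%) in the old control than in the young control. With barcodes thinned to 1000 UMIs the knockout had 120 higher and 33 lower of 6031 genes, and the old control 80 and 80. Thinning leaves 1000 UMIs in each of 43 knockout members. A gene near 20 CPM could then not be called lower in the knockout even with no UMI. The fall in lower genes is therefore not read as an effect of depth. With free RNA subtracted the knockout had 288 and 204 of 5580 genes and the old control 231 and 252. The 6097 genes of the main setting had a median log2 ratio of -0.06 for the knockout and -0.11 for the old control. Both comparisons share the young control library. The percentages called over all 6097 genes are the background for the list counts below.

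The costimulatory and inhibitory receptors moved in both directions in the knockout. Of 18 listed genes 14 reached 20 CPM, with 4 higher (Ctla4, Tnfrsf4, Tnfrsf9 and Cd160) and 2 lower (Icos and Cd28) at a median log2 ratio of 0.24. Tnfrsf4 stood at 288 CPM in 9 knockout members, 85.3 CPM in the old control and 53.5 CPM in the young control, 5.39 times the young control in the knockout (3.84 to 7.48). Tnfrsf9 had 19 UMIs in the knockout in 4 barcodes, 28 in the old control and 28 in the young control, a knockout ratio of 9.36 (4.94 to 17.4), and 63.2% of the knockout UMIs lay in 1 barcode. Cd160, a receptor of cytotoxic cells, had 105 CPM in the knockout and 38.6 CPM in the young control.

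Some genes used by regulatory T cells were higher in the knockout. Of 18 listed genes 11 reached 20 CPM and Foxp3 was not among them. Higher were Il2ra, Ikzf2, Klrg1 and Ctla4, none was lower, and the median log2 ratio was 1.19. Of the 11 ratios 9 were above 1, against 2850 of 6097 over all genes at that level. Ikzf2, the transcription factor Helios of regulatory and of some CD8+ and innate-like T cells, stood at 560.3 CPM in 19 knockout members, 158 CPM in 34 old control members and 173 CPM in 122 young control members, a knockout ratio of 3.25 (2.59 to 4.04). It was found in 10 of 18 Icos-positive and 9 of 25 Icos-negative knockout members. Il2ra had 166 CPM in the knockout, 61.9 CPM in the old control and 51.5 CPM in the young control. Tox, a factor of chronically stimulated T cells, was 3.25 times the young control in the knockout (2.02 to 5.07), with 25 UMIs in 16 barcodes.

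Several cytotoxic genes were called higher in the knockout, and most of their UMIs lay in few barcodes. Of 21 listed genes 19 reached 20 CPM, with 6 called higher (Ccl5, Gzma, Gzmc, Prf1, Ifng and Xcl1) and Cd8a lower. For Ccl5 no order is read, since its ratio was 0.814 without the richest barcode of each library. The Ifng ratio of 2.10 was below 1 with at most 10% mitochondrial UMIs (0.915) and without barcodes holding a gamma constant UMI (0.866). Xcl1, a chemokine gene of CD8+ and innate-like lymphocytes, had 240 UMIs in 15 knockout barcodes (1331 CPM), 127 UMIs in 38 old control barcodes (175 CPM) and 294 UMIs in 42 young control barcodes (118 CPM), 11.3 times the young control in the knockout (9.45 to 13.4). Gzmc had 675 UMIs in 15 knockout barcodes with 69.8% of them in 1, and Gzma 136 UMIs in 3 barcodes with 83.1% in 1. Without the richest barcode of each library the Gzma ratio was 0.598, below 1. Markers of NK cells moved with this group: the summed level of 6 such genes was 1320 CPM in the knockout, 835 CPM in the old control and 631.5 CPM in the young control, with Ncr1 at 2, 0 and 17 UMIs and Klrb1c at 6, 1 and 44 UMIs. Their part in the group's levels was not tested.

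The cytotoxic list of the old control held Ccl5, Ccl4, Ifng and Klrc1 higher and Gzma and Gzmc lower at a median log2 ratio of 0.17. Klrc1, which encodes the inhibitory receptor NKG2A, stood at 27.7 CPM in the knockout, 127 CPM in the old control and 14.9 CPM in the young control, 8.50 times the young control in the old control (5.75 to 12.8), spread over 49 of 179 members. Ifng was at 377 CPM in 61 old control members against 121.5 CPM in the young control, a ratio of 3.103 (2.63 to 3.67). Klra9 was 5.87 times the young control (4.14 to 8.40). Gzma had 4 UMIs in the old control and 612 in the young control, a ratio of 0.0224 (0.00607 to 0.0575). Gzmc was 0.101 times the young control, but its young control UMIs lay in 18 barcodes, 48.6% of them in 1. It had 51 old control and 2 young control UMIs, a ratio of 13.5, without barcodes rich in collagen and Krt14.

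Cd5 and Cd6, surface receptors of conventional T cells, were lower in the old control. Of 16 genes of the receptor and its proximal signalling all reached 20 CPM and 13 had a ratio below 1, at a median log2 ratio of -0.40. Over all genes at that level, 3559 of 6097 had a ratio below 1 in the old control. Cd5, a negative regulator of receptor signalling, was 0.256 times the young control (0.175 to 0.362) and Cd6, its relative, 0.293 times (0.213 to 0.393). In the knockout neither was called: Cd5 stood at 172 CPM in the knockout, 46.8 CPM in the old control and 183 CPM in the young control. Slamf6, a receptor of memory and precursor T cells, had 4, 3 and 102 UMIs in the same order.

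Some genes of naive and recirculating T cells were lower in the old control. Of 11 listed genes 9 reached 20 CPM, and there 0 were higher and 3 lower (Ccr7, S1pr1 and Satb1). S1pr1, the receptor by which T cells leave tissue, stood at 88.8 CPM in the knockout, 8.25 CPM in the old control and 66.0 CPM in the young control, and Ccr7, the lymph-node homing receptor, at 22.2, 8.25 and 35.4 CPM. Of the residency genes, Cd69 did not differ beyond 2-fold (555, 604 and 567 CPM) and Cxcr6 was 0.413 times the young control in the knockout (0.273 to 0.601) and 1.04 times in the old control (0.906 to 1.19).

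The type 2 genes Il13 and Areg were higher in the old control, where 4 of 8 listed genes reached 20 CPM. Il13 had 1 UMI in the knockout, 133 UMIs in 30 barcodes in the old control (183 CPM) and 226 UMIs in 64 barcodes in the young control (90.9 CPM), a ratio of 2.01 in the old control (1.61 to 2.50) and 0.0610 in the knockout (0.00154 to 0.343). Areg stood at 161, 186 and 71.6 CPM, 2.59 times the young control in the old control (2.06 to 3.26). Il1rl1, the interleukin-33 receptor of type 2 and regulatory cells, went the other way with 8, 2 and 61 UMIs. Innate type 2 lymphoid cells express the same genes, and the summed level of 6 of their markers was 388 CPM in knockout, 612 CPM in old control and 529.7 CPM in young control members. Their part was not tested. Of the 14 type 3 genes 7 reached 20 CPM, with Ccr6 and Tmem176a higher in the old control, while Il17a, the effector cytokine gene of that program, had 1, 25 and 24 UMIs (5.55, 34.4 and 9.65 CPM). The old control held its 25 in 6 barcodes and the young control its 24 in 2 barcodes.

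**Figure D5:**
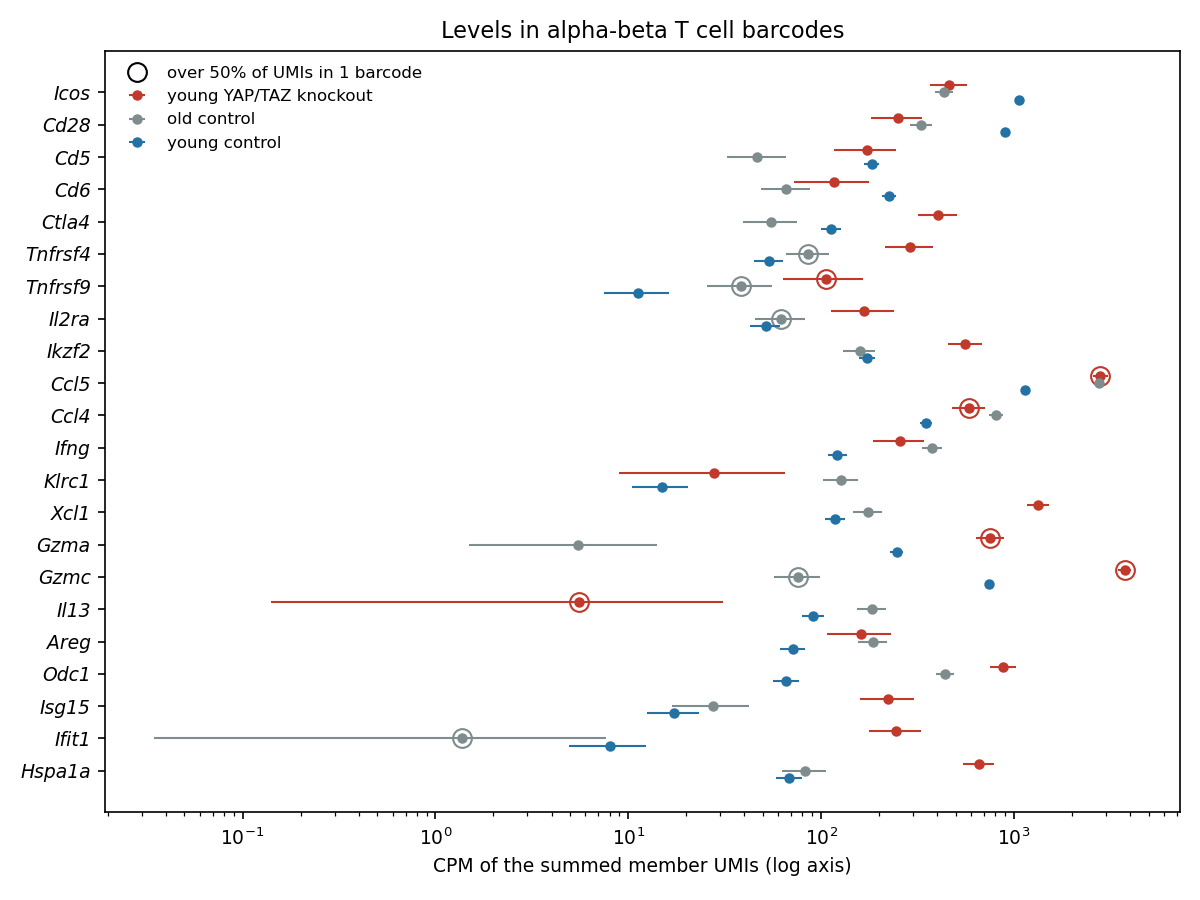
CPM of 22 genes summed over alpha-beta T cell barcodes (log axis) in the knockout (upper point), the old control (middle) and the young control (lower), with exact Poisson 95% intervals. Rings mark genes with over 50% of a library's UMIs in 1 barcode; Odc1 lay at 882, 440.2 and 65.97 CPM and Isg15 at 222, 27.5 and 17.3 CPM.

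The most evenly spread gene among those named by rank was Odc1, which encodes ornithine decarboxylase, the rate-limiting enzyme of polyamine synthesis. It had 159 UMIs in 33 of 43 knockout members (882 CPM), 320 UMIs in 79 of 179 old control members (440.2 CPM) and 164 UMIs in 131 of 678 young control members (65.97 CPM). The ratio to the young control was 13.4 in the knockout (10.7 to 16.7) and 6.67 in the old control (5.51 to 8.11), and over 15 alternatives it ran from 10.3 to 21.3 and from 4.61 to 10.7. The richest barcode held 13.8% of the UMIs in the knockout. Odc1 also differed over all filtered barcodes, at 208 CPM in the knockout, 123.5 CPM in the old control and 72.6 CPM in the young control, less than among the T cells of the first 2 libraries.

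Interferon-response genes were called in opposite directions in the comparisons. Of 20 listed genes 16 reached 20 CPM. Isg15, Ifit1 and Ifitm3 were higher in the knockout (Ifitm3 at 2.18 times the young control, and 0.546 times among members with Trac), none was lower and the median log2 ratio was 0.62. Of the same list 3 genes were lower in the old control, Ifi27l2a and Gbp2 among them, none was higher and the median was -0.81. Ifit1 had 44 UMIs in 7 knockout barcodes, 1 UMI in the old control and 20 UMIs in the young control, 30.3 times the young control in the knockout (17.5 to 54.3). Isg15 had 40 UMIs in 14 knockout barcodes, 20 in the old control and 43 in the young control, 12.8 times the young control (8.13 to 20.2). Both were high in the whole knockout library too, Isg15 at 195.5 CPM of all filtered barcodes, against 24.8 CPM in the old control and 16.9 CPM in the young control. Without barcodes rich in collagen and Krt14 the knockout Isg15 ratio was 2.12 and was not called.

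Among heat-shock chaperone genes all 12 had a ratio above 1 in the knockout, against 2850 of 6097 over all genes measured. Of the 12, 4 were called (Hspa1a, Hspa1b, Hsph1 and Dnaja1), at a median log2 ratio of 0.75, and none was called in the old control. Hspa1a stood at 660.1 CPM in 17 knockout members, 82.5 CPM in the old control and 68.4 CPM in the young control, 9.65 times the young control in the knockout (7.57 to 12.3). The median mitochondrial share of the members, 10.3% in the knockout against 5.36% in the young control, moved with this group, and so did Hspa1a over all filtered barcodes (499 CPM in the knockout, 273.5 in the old control and 233 in the young control). Their part was not tested. The immediate-early genes did not share the direction, with 0 of 21 higher and Jun lower in the knockout at 0.361 times the young control. With free RNA subtracted Jun turned round, with 12 UMIs left in the knockout and 0 in the young control. Cell-cycle genes were at a ratio below 1 in 11 of 11 measured in the knockout, against 3247 of 6097 over all genes measured. Of the 11, 4 were called lower (Top2a, Ube2c, Stmn1 and Hmgb2). Top2a had 4 UMIs in 2 knockout barcodes, 75 UMIs in 17 old control barcodes and 264 UMIs in 82 young control barcodes, and no gene of the list was called in the old control.

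The remaining genes named by rank included genes of other skin cells. In the knockout, the 12 highest also held Selp, an adhesion gene of endothelium and platelets (338, 9.63 and 2.41 CPM in the knockout, the old control and the young control), and Csf3, Tmem252, Samd11, Bend4, Tff1 and Ncf1. Selp was at 419 CPM over the whole knockout library, and without barcodes rich in collagen and Krt14 it was not called. All 18 Ncf1 UMIs of the knockout lay in 1 barcode. Over 15 alternatives Samd11 ran from 28.6 to 45.6 times and Bend4 from 12.4 to 34.9 times the young control. Both averaged below 50 CPM, so the setting of at least 50 CPM left them out and says nothing about their ratios. Without gamma constant UMIs Bend4 was not called, at a ratio of 12.4. The 12 lowest in the knockout were the keratin gene Krt77, the fibroblast genes Col1a1, Col1a2, Col3a1, Dcn and Pi16, the antigen-presentation genes H2-Aa and H2-Eb1, the mast cell protease gene Mcpt4, and Fam25c, Rnase4 and Il1b.

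Cd207, the Langerhans cell gene, was 16.8 times the young control in the old control, with 94.5% of its UMIs in 1 barcode. Trgv2 and Tcrg-C1, segments of the gamma receptor, were 19.1 and 10.9 times the young control, with 39 UMIs in 23 barcodes and 35 UMIs in 18 barcodes. Grasp, Inhba, Spon1, Col23a1, S100b and Casp6 complete the highest, with 36 to 106 UMIs each, of which 1 barcode held 75.0% for S100b and 56.6% for Grasp. Among the lowest in the old control were the mast cell genes Mcpt4, Cpa3 and Cma1, the collagen genes Col1a1, Col1a2 and Col3a1, the cytotoxic genes Gzma and Gzmc described above, and Gpx3, Meg3 and Retnla. The young control had 82.5% of its Mcpt4, 90.2% of its Cpa3 and 86.8% of its Cma1 UMIs in 1 barcode each. Free RNA was estimated from 6 genes, Col1a1, Col1a2, Col3a1, Dcn, Sparc and Krt14. It came to 15.6% of member UMIs in the knockout, 36.1% in the old control and 42.4% in the young control. The collagen genes are part of this estimate, so it is no separate observation of them. With that share subtracted no UMI of Col1a1, Col1a2 or Col3a1 was left in the young control members, against 3, 0 and 0 in the knockout and 36, 78 and 1 in the old control. Col1a1 was then called higher in both comparisons and Col1a2 in the old control, and Col3a1 lost its call in both.

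Of the Hippo pathway, in which YAP and TAZ act, 10 of 15 listed genes reached 20 CPM. Wwtr1 and Mob1a, an adaptor of the LATS kinases, were lower in the knockout, Mob1a with 12 UMIs in the knockout, 85 in the old control and 451 in the young control (0.367 times, 0.188 to 0.647), and no gene of the list was called in the old control. Of 12 genes of MHC class I and peptide loading, Nlrc5, their transcriptional activator, was lower in the knockout with 2, 37 and 174 UMIs, and none was called in the old control. Of the chemokine receptors, Ccr6 was 2.46 times the young control in the old control (1.65 to 3.65), and Ccr2 0.390 times (0.285 to 0.524).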

How the data were processed

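Dorsal skin had been dissociated with collagenase I, strained and loaded on a 10x Chromium for 3' end counting, per the labels' protocols. Each deposited matrix gives unnormalized UMI counts of 31053 features in every barcode. Cell Ranger 3.1.0, Seurat 3.1.5 and the genome build mm10 are named per the submitters' processing notes. The sources used here do not say how barcodes were selected before deposit. The libraries held 25348 barcodes (57767761 UMIs) in the knockout, 22108 (52579262) in the old control and 15290 (95274423) in the young control.

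From these counts the members were gated, their UMIs summed per library and scaled to CPM. Python 3.11.15, numpy 2.4.6, scipy 1.17.1, pandas 2.3.3, scanpy 1.11.5 and matplotlib 3.10.9 were used, and edgeR 4.0.16 in R 4.3.3 gave TMM factors. Each group is 1 library, so no p-value is given. Log2 ratios add 0.5 to each count. A gene with no UMI was set to 3 counts for a bound. Thinning drew 1000 UMIs per barcode at random. Keratinocyte barcodes had at least 5 UMIs each of Krt5 and Krt14 and no Ptprc. Doublets were kept as the gate states. The automatic Scrublet threshold marked 0% of barcodes in the knockout, 0.0166% in the old control and 3.55% in the young control and had not worked in the first 2, so the 8% highest scores were removed as an alternative.

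Genes were named by rule: per comparison the 12 highest and 12 lowest by the near bound, without mitochondrial, ribosomal protein, haemoglobin, immunoglobulin and unnamed genes and without genes over 3 times higher in the whole library, plus called genes and extremes of each list. Splits of members by a detected gene show the genes with the most extreme ratios. Gene positions are from GENCODE M21 on GRCm38, the assembly of mm10. The members, gene lists and tests were chosen with earlier results of these data known. A few genes that the rule names are not reported here.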

Additional observations from a re-analysis of the deposited data

How the results depend on the processing

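The share of members was recomputed under 11 alternatives per library. It was 0.786% with at least 2000 UMIs, 0.330% without barcodes with 3 or more UMIs of collagen genes and Krt14, and 0.234% both with Trac required and with the rule applied to thinned barcodes, in the knockout. With no mitochondrial limit the knockout share was 0.364%, 89 of 24477 barcodes. In the old control it was 1.76% with at most 10% mitochondrial UMIs, 1.12% with a CD3 and a constant gene, 1.06% without gamma constant UMIs, 2.50% with at least 2000 UMIs, 0.986% without collagen and Krt14 barcodes, 0.721% with Trac and 0.837% thinned. In the young control it was 5.25% with a CD3 and a constant gene, 0.938% without collagen and Krt14 barcodes, 4.001% with Trac, 5.21% with no mitochondrial limit and 4.04% thinned. The requirement of Trac, the limit on MHC class II UMIs, the lifting of the mitochondrial limit, the thinned rule and the removal of each gene's richest barcode were chosen after seeing the data.

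Genes higher in the knockout were 110 of 5787 with Trac and 288 of 5580 with free RNA subtracted. They were 95 of 3082 at a mean of at least 50 CPM and 99 of 6097 without each gene's richest barcode. Genes lower in the knockout were 33 of 6031 in thinned barcodes and 121 of 3082 at 50 CPM. Thinning leaves the knockout few UMIs to call a lower gene with, so the first count is not read as an effect of depth. Without the richest barcode 305 of 6097 genes were lower. This removal takes a larger part of the counts from the smallest library. Genes higher in the old control were 231 of 5580 with free RNA subtracted and 60 of 6097 without the richest barcode. At 5 CPM they were 167 of 10353 and at 50 CPM 56 of 3082. Genes lower in the old control were 80 of 6031 thinned and 99 of 3082 at 50 CPM. A CPM cutoff changes how many genes are measured, so its counts are to be read against these totals. TMM and median-of-ratios scaling moved log2 ratios by 0.03 to 0.13.

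The ratios that turned round were, in the knockout over the young control, Ccl5 (0.814) and Gzma (0.598) without the richest barcode, Ncf1 (0.0 without gamma constant UMIs, without high doublet scores, with Trac and without the richest barcode), Csf3 (0.0) and Ifitm3 (0.546) with Trac, and Ifng with at most 10% mitochondrial UMIs (0.915) and without gamma constant UMIs (0.866). In the old control over the young control they were Cd207 with Trac (0.972), Gzmc without collagen and Krt14 barcodes (13.5) and Tnfrsf9 without the richest barcode (0.963). With free RNA subtracted 4 more turned round with no UMI left in the young control, so that no ratio can be given: Col1a1 (3 UMIs) and Jun (12) in the knockout, and Col1a1 (36) and Col1a2 (78) in the old control. The collagen genes are among those the estimate was made from. For Ccl5, Gzma and Ncf1 most or all knockout UMIs lay in 1 barcode. The cause was not tested for any of these genes. No paired analysis was possible because each group has 1 library. The 43 knockout barcodes limit what can be told: a share of 11 of 43 carries an interval from 13.5% to 41.2%.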

Other observations

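Barcodes that met the rule but for more than 15% mitochondrial UMIs were 46 in the knockout, more than its 43 members, against 24 in the old control and 15 in the young control. Icos was detected in 6 of the 46 (13.0%) with a median of 2102 UMIs in the knockout, in 2 of the 24 (8.33%) with 1324 UMIs in the old control and in 11 of the 15 (73.3%) with 3627 UMIs in the young control. Ctla4 was detected in 3, 0 and 1 of them in the same order of libraries.

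The members with a gamma constant UMI differed between the libraries. In the old control 37 of 51 such barcodes held Ccl5 (72.5%) and 29 held Cd8a, against 52 and 32 of the 128 members without one. In the young control 21 of 44 held Ccl5 and 13 held Cd8a. In the knockout 1 of 9 held Ccl5, and that barcode held 353 UMIs of it.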
